A study of Mus musculus with 18 samples.

Results

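Genes of membrane traffic were followed in differentiating i-Mixl1 embryonic stem cells of the mouse, in which doxycycline (DOX) switches on the homeobox gene Mixl1. The genes were chosen by name alone: every array symbol that begins with Rab, Arf, Arl or Sec and a digit, with Ap, a digit and a letter, with Cop and a letter, or with Snx, Vps, Stx or Vamp, leaving out the Cops genes of the COP9 signalosome. The rule gave 82 genes out of the 5849 gene symbols on a spotted mouse cDNA array, and 139 of its 15247 gene probes; the brightest probe of each gene stood for it. They were 23 Rab, 15 Ap, 8 Vps, 7 Sec, 7 Stx, 6 Arl, 6 Snx, 5 Cop, 3 Arf and 2 Vamp genes. The letters also took in Klf6, a transcription factor, and Kif20a, a mitotic kinesin, which the array lists under the older symbols Copeb and Rab6kifl. The rule used no measured value beyond the brightness that picked the probe of each gene. No filter on dim values was applied, and all 82 genes were tested at each day.

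The study held 18 samples, 3 biological replicates in each of 6 groups: embryoid bodies with DOX and without DOX at day 2, at day 3 and at day 4. All groups were i-Mixl1 cells, and DOX at 0.1 ug/ml was given to the treated cultures from 1 day after plating. Each sample was total RNA of embryoid bodies, copied once by linear amplification before dye labelling, and each of the 9 arrays, 3 a day, paired the 2 samples of 1 day and replicate number. The array annotation has no Mixl1 probe, so the induced gene was not analysed here, and the labels do not say whether the line was 1 clone.

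Which channel held the DOX sample could not be settled. The deposited value table gives the red channel to the DOX samples, whereas the sample labels give DOX the dye Cy3, which is read in the green channel. Every difference is therefore the red over the green channel of the same array on the log2 scale, and "higher" means higher in red: higher with DOX by the value table, and higher without DOX by the labels' dyes. Dye and treatment cannot be told apart within a day, whereas a dye effect that is the same on every array drops out of a difference between days.

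Membrane traffic moves proteins and lipids between organelles in coated vesicles. Arf and Sar GTPases recruit coats (COPI, COPII and clathrin with its AP adaptors), Rab GTPases mark membranes and call in tethers and motors, and SNARE proteins such as syntaxins and VAMPs fuse the vesicle with its target. Sorting nexins and the Vps proteins of the retromer and ESCRT complexes sort cargo at the endosome, a step that early embryonic epithelia use to take up nutrients and to place receptors and adhesion proteins.

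The arrays had a median intensity between 209 and 491, and 54.3% to 70.1% of gene probes passed a signal-to-noise ratio of 1.4. Most traffic genes were well measured: 74 to 78 of the 82 passed in the red channel and 74 to 79 in the green channel of each array. Their mean log2 levels ran from 6.34 to 13.15 with a median of 10.75, and 54 genes lay above 10 and 8 below 8. Array ratios over the 82 genes correlated at 0.491 to 0.781 between replicates of 1 day and at -0.0698 to 0.206 between day 2 and day 4, as a description over genes that share arrays.

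The channels of day 4 also differed in cell type markers, which are levels in mixed tissue: fewer cells of a type and less RNA per cell cannot be told apart here. At day 4 the visceral endoderm markers were higher in red for 2 of the 3 measured (of 6 listed), with summed log2 levels of 10.30 to 10.85 in red and 9.47 to 9.67 in green. The blood markers were higher for 3 of 3 (9.53 to 10.31 in red, 8.46 to 8.70 in green), and the trophoblast markers for 2 of 2 (of 3 listed; 11.38 to 12.14 in red, 10.44 to 11.60 in green). The primitive streak markers were lower for 2 of 3 (of 5 listed), at 10.85 to 11.06 in red and 12.15 to 12.32 in green. Among these the streak gene T stayed not well above background in both channels throughout. At day 4 Apoa1 of the visceral endoderm list was also not well above background in both channels. In green this held for Hbb-y of the blood list and Zfp42 of the pluripotency list. The pluripotency markers, which define the starting cells, split 2 higher and 2 lower of 4 (of 6 listed), with sums of 12.47 to 12.50 in red and 13.30 to 14.12 in green; 1 neural marker of 2 was lower. At day 3 the lists gave 3 pluripotency markers higher and 1 lower, 2 streak, 1 trophoblast and 1 blood marker higher, and 2 neural markers lower, and at day 2 Eomes of the streak list and Col1a2, the 1 fibroblast marker measured, were higher. The trophoblast and blood markers that passed at day 3, Hand1 and Gata1, were not well above background in green on that day. The marker lists were chosen with earlier results of these data known, and the part of these cells in the traffic gene results was not tested.

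Few traffic genes separated the channels at day 2 and more did at day 3 and day 4. By limma over all gene probes with Benjamini-Hochberg adjustment at 0.05, 1 gene was higher and 1 lower in red at day 2, 2.44% of the 82, where 3.30% of all gene probes passed (1.38% higher and 1.92% lower). At day 3, 5 genes were higher and 10 lower, 18.3% of the 82, against 20.1% of all gene probes (9.15% higher and 11.0% lower). At day 4, 14 were higher and 10 lower, 29.3% of the 82, against 17.4% of all gene probes (7.97% higher and 9.45% lower) and 20.2% of gene symbols at their brightest probe. Counted by gene symbol in that way, as the 82 genes are, 3.49% passed at day 2 and 22.5% at day 3. The median log2 ratio of the 82 genes was -0.01 at day 2, -0.01 at day 3 and 0.07 at day 4, each within 0.1 of the median over all genes.

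The genes that passed were 29 in all, and 53 passed on no day. Of those, 10 passed on both day 3 and day 4 (Ap1m2, Arl2, Arl4a, Rab38, Rab6a, Sec61a1, Snx4, Stx3, Stx7 and Vamp8), 7 of them in the same direction. The differences were mostly modest: the ratios that passed ranged in size from 0.25 to 0.96 on the log2 scale at day 3 and from 0.24 to 0.72 at day 4, with a median SE of 0.085 over 3 arrays. Every ratio that passed had the same sign on all 3 arrays of its day, yet the 3 red and the 3 green levels were fully apart for 1 of 2 genes at day 2, 3 of 15 at day 3 and 10 of 24 at day 4. Over all 82 genes, passed or not, 34, 42 and 48 kept 1 sign on all arrays of days 2, 3 and 4, and the channels were apart for 1, 6 and 12. Of all gene probes measured on 3 arrays, 47.6%, 49.8% and 50.1% kept 1 sign and 8.27%, 10.8% and 13.8% had channels apart. Of those probes that passed, 100%, 98.7% and 99.2% kept 1 sign, and 65.8%, 34.8% and 43.8% had channels apart. The day 3 count fell to 8 without replicate 2, and the day 4 count to 7 without replicate 2 and to 10 without replicate 3. A limma fit that ignored which samples shared an array passed 0 of the 82 genes on every day, with 2, 4 and 3 genes at an unadjusted p under 0.05 at days 2, 3 and 4. The p-values measure the spread between these replicates.

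**Figure D1:**
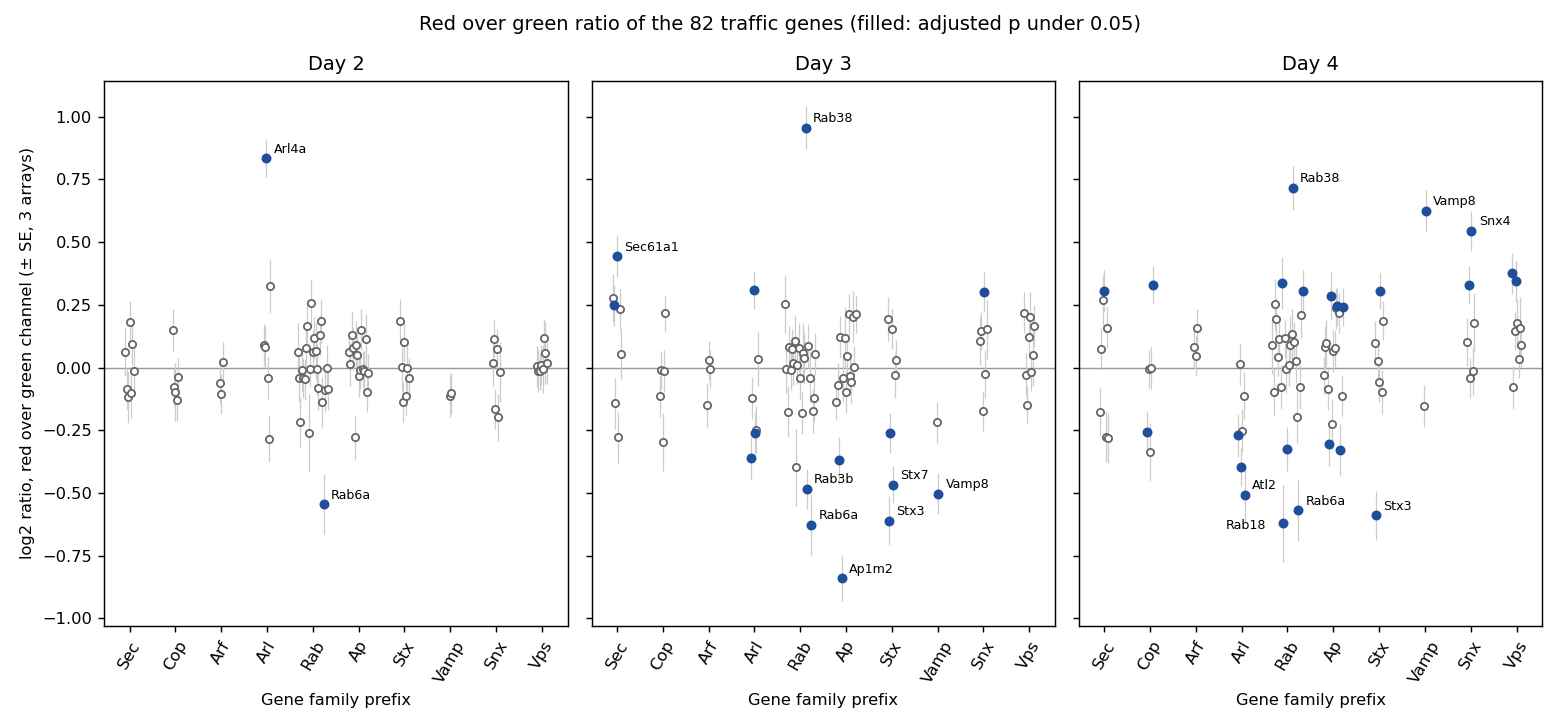
Log2 ratio of red over green (vertical axis) for each of the 82 traffic genes by family prefix (horizontal axis) at days 2, 3 and 4; each point is the fitted ratio of 1 gene with its SE over 3 arrays, and filled points passed the adjusted test. Arl4a stands apart at day 2 at 0.84, Rab38 at 0.96 and Ap1m2 at -0.84 mark the ends at day 3, and most Snx and Vps genes lie above 0 at day 4.

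The 6 genes on which most of the account turns are shown with the 250 bases before their transcription start, from RefSeq on build GRCm38.p6, 5′ to 3′ on the strand of the gene. They were taken because their ratios carry the SNARE, adaptor, Arl and endosomal results, and no array value bears on these bases. The windows are Vamp8 at chr6:72390668-72390917 (minus strand), Stx3 at chr19:11819404-11819653 (minus), Ap1m2 at chr9:21312334-21312583 (minus), Arl4a at chr12:40037988-40038237 (minus), Vps26a at chr10:62486806-62487055 (minus) and Snx4 at chr16:33251206-33251455 (plus); for Arl4a and Vps26a the first of 2 listed starts was used. Capitals mark matches on either strand to a GC box, whose letters are GGGCGG. They also mark the TATA box, with the letters TATAAA, where a window holds it. In the same way they mark the E-box of basic helix-loop-helix factors, which reads CACGTG.
Vamp8: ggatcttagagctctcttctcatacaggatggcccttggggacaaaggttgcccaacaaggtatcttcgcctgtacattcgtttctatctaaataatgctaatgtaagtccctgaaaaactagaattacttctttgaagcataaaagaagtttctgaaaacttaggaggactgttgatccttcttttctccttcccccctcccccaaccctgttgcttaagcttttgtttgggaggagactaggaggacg
Stx3: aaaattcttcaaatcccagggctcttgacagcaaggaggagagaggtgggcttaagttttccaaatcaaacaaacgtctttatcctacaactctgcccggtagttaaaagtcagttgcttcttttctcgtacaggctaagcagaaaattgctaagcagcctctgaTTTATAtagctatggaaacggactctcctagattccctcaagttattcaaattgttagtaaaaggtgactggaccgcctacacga
Ap1m2: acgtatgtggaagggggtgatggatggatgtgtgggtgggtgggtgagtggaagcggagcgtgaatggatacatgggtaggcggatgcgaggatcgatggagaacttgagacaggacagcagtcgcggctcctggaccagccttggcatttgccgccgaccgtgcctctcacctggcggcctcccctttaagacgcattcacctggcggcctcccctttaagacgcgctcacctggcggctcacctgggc
Arl4a: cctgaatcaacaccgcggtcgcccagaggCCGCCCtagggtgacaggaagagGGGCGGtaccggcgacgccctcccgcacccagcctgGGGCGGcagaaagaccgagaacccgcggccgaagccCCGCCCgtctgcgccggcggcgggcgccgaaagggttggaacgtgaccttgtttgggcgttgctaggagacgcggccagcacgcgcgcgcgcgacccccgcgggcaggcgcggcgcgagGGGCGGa
Vps26a: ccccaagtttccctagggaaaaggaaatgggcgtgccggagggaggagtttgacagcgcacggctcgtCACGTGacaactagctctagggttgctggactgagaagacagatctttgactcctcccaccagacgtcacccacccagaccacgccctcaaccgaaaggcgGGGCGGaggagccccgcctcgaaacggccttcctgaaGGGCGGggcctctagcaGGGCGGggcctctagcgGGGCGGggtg
Snx4: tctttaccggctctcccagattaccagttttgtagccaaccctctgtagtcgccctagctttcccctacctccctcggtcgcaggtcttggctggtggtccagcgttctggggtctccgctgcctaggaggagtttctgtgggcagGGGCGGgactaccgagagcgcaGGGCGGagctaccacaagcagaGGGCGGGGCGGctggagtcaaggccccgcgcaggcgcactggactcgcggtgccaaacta

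The printed windows of Arl4a, Vps26a and Snx4 held 5, 4 and 4 GC boxes, some of them overlapping, and those of Vamp8, Stx3 and Ap1m2 held none. The 1 TATA box lay 85 bases before the start of Stx3 on the reverse strand, and the 1 CACGTG lay 182 bases before that of Vps26a. Of the 82 genes, 67 matched the RefSeq promoter table, and GGGCGG stood in the same window of 42 of them (62.7%), against 58.9% of 3909 array genes and 32.9% of all 27025 promoters. CACGTG stood in 9 (13.4%, against 9.06% and 6.05%): Ap2m1, Arl2, Arl3, Klf6, Rab23, Rab5a, Snx5, Stxbp2 and Vps26a. CCAAT stood in 28 (41.8%, against 37.9% and 34.5%), TATAAA in 3 (4.48%, against 6.68% and 13%), namely Rab3b, Rab7 and Stx3, and TGACGTG in none (against 2.33% and 1.61%). Motifs were searched on both strands, and CACGTG and TGACGTG can share bases.

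The Sec, Cop, Arf and Arl genes are counted together; many Sec and Cop proteins serve the endoplasmic reticulum and the Golgi, whereas several Arl GTPases act elsewhere. Of these 21 genes, 1 was higher at day 2, 3 were higher and 2 lower at day 3, and 2 were higher and 4 lower at day 4. Of gene symbols at their brightest probe, 1.68% were higher and 1.81% lower at day 2. The shares were 10.4% and 12.1% at day 3, and 10.2% and 10% at day 4. Arl4a, an Arf-like GTPase of the plasma membrane that recruits cytohesin, had log2 levels of 12.12, 11.73 and 12.03 in the red channel and 11.36, 10.84 and 11.18 in the green channel at day 2. The red samples were all above the green ones, by 0.84 ± 0.077 (SE, n = 3 arrays), or 1.78-fold, adjusted p = 5.29e-06. At day 3 the red levels were 11.48, 10.98 and 10.63 and the green levels 11.21, 10.75 and 10.20; the channels overlapped, and the ratio was 0.31 (adjusted p = 0.0104). At day 4 the levels were 9.48, 9.88 and 9.56 in red and 9.83, 10.34 and 9.94 in green, and every red value lay below its partner on the array, by a ratio of -0.40 (1.32-fold lower, adjusted p = 0.00202).

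The ratio of Arl4a thus passed the test on all 3 days with its sign turned at day 4, and the change of the ratio between days passed as well: -0.53 from day 2 to day 3 (adjusted p = 0.0137), -0.71 from day 3 to day 4 (0.000509) and -1.23 from day 2 to day 4 (4.15e-06). Both channels were dimmer at day 4 than at day 2, by -2.32 in red (adjusted p = 0.000269) and -1.09 in green (0.0465). In these levels day and set of arrays cannot be told apart. The day 2 ratio and the changes to day 4 held with any 1 replicate left out. The day 3 ratio did not pass without replicate 2 or without replicate 3 (adjusted p = 0.0628 and 0.130), the day 4 ratio did not without replicate 2 (0.0511), and neither the change from day 2 to day 3 nor the green change passed whichever replicate was left out (up to 0.263 and 0.245).

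The other Arl genes that passed were lower in red. Arl2, a GTPase of tubulin folding, had a ratio of -0.36 at day 3 (adjusted p = 0.00779) and -0.27 at day 4 (0.0384), with 3 of 3 arrays below 0 on both days; the first did not pass without replicate 2 or 3 and the second whichever replicate was left out. Arl6, a GTPase of cilia, gave -0.26 at day 3 (0.0411), was lost whichever replicate was left out (up to 0.183), and is named after its values were seen. Atl2, an atlastin that fuses tubules of the endoplasmic reticulum and is listed as Arl6ip2, had -0.51 at day 4 (0.00411), but its clone is noted as having given no PCR product, its other probe gave 0.09, and the call was lost without replicate 2 (adjusted p = 0.116). Arl3 and Arl6ip4 did not pass on any day.

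Among the Sec genes, Sec61a1, the pore subunit of the translocon, was higher in red at day 3: its levels were 10.52, 10.50 and 9.94 in red and 10.14, 9.95 and 9.54 in green. The channels overlapped while all 3 arrays lay above 0, with a ratio of 0.44 ± 0.084 (1.36-fold, adjusted p = 0.00169; 0.0503 without replicate 2). At day 4 its ratio was 0.31 (0.0195), which did not pass without replicate 2 or 3. Its paralogue Sec61a2 had ratios of -0.28 on both days, which did not pass (0.0642 and 0.0746), and Sec61g, the small gamma subunit and the brightest of all 82 genes at 13.15, had 0.23 at day 3 (0.0580). Sec14l2, a lipid-binding protein that shares the letters but not the Sec61 pore, had 0.25 at day 3 (0.0431) and did not pass whichever replicate was left out.

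Of the COPI coat genes, 1 passed. Cope, the epsilon subunit, was lower at day 4, with a ratio of -0.26 (adjusted p = 0.0420) and a second probe at -0.25 (0.0441); this call and its change from day 2 to day 4, -0.41, were lost whichever replicate was left out. Copz1, Copg1 and Copg2 did not pass on any day. Copg2, a gamma subunit, had ratios of -0.10, -0.30 and -0.34 at days 2, 3 and 4 (adjusted p = 0.705, 0.0837 and 0.0580), and Copz1, the brightest Cop gene at 12.33, had ratios between -0.13 and 0.00. Klf6, no coat gene, had 0.33 at day 4 (0.00677; 0.0917 without replicate 2) with a second probe at 0.07, and without it and Kif20a the day 4 count was 23. Arf1, the brightest Arf at 12.80, had levels of 13.33, 12.77 and 12.84 in red and 13.02, 12.88 and 12.79 in green at day 4, and with Arf4 and Arfgap1 it did not pass on any day (ratios of -0.15 to 0.16 over the 3 genes).

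Rab GTPases gave the largest ratio of day 3, in a gene of pigment and lysosome-related organelles. Of 23 genes, 1 was lower at day 2, 1 was higher and 2 lower at day 3, and 3 were higher and 3 lower at day 4. Those are 4.35%, 13% and 26.1% of the Rab genes, where 3.49%, 22.5% and 20.2% of gene symbols passed. Rab38 had day 2 levels of 8.91, 9.89 and 9.11 in red and 8.99, 9.99 and 9.17 in green, which overlapped, with a ratio of -0.08 (adjusted p = 0.672). At day 3 the levels were 9.22, 10.35 and 10.76 in red and 8.53, 9.32 and 9.60 in green: replicate 1 was the dimmest in both channels, and each red value was above its partner, by 0.96 ± 0.087 (1.94-fold, adjusted p = 1.6e-06). By day 4 its red levels of 9.01, 9.54 and 9.40 were all above the green levels of 8.30, 8.81 and 8.69, by 0.72 (1.64-fold, adjusted p = 3.31e-05). The changes of the ratio, 1.04 from day 2 to day 3 and 0.80 from day 2 to day 4, passed, and these 4 calls held with any 1 replicate left out.

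Rab3b, a Rab of regulated secretion, was lower in red at day 3 alone among the days: its levels were 6.92, 7.97 and 8.37 in red and 7.51, 8.43 and 8.77 in green, a ratio of -0.48 ± 0.079 (adjusted p = 0.000496) that held with any 1 replicate left out. The channels overlapped, with every red value under its partner, and the gene is dim. Its ratio changed by -0.61 from day 2 to day 3, which was lost without replicate 1 or 2 (up to 0.160), and by 0.59 from day 3 to day 4, which was lost without replicate 2 (0.0542).

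Rab6a, a Rab of the Golgi, was lower in red on all 3 days, but its red signal was not well above background at any time. Over days 2, 3 and 4 its mean levels were 7.17, 7.44 and 7.04 in red, against 7.72, 8.07 and 7.61 in green. The fitted log2 ratios were -0.54, -0.63 and -0.57 (adjusted p = 0.0186, 0.00188 and 0.00394), or 1.46-, 1.54- and 1.48-fold lower. Its red signal was above the lowest signal that passed, so a floor leaves these folds as they are. They are not firm bounds, as other processing gave log2 ratios from -1.74 to -0.35 at day 2. At day 3 it gave -1.98 to -0.27, and at day 4 -2.14 to -0.27. The day 2 call did not pass without replicate 2 or 3, and with a separate loess curve for each print tip none of the 3 calls passed (0.213, 0.202 and 0.231).

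The other Rab calls were of day 4. Rab18, a Rab of lipid droplets, had the lowest ratio of that day, -0.62 ± 0.154 (adjusted p = 0.0114), with array ratios of -0.32, -0.54 and -1.01 and a loss of the call without replicate 2 (0.0868) or with plain background subtraction (0.0738). Rab25, an epithelial relative of Rab11, was lower at -0.32 (0.0180; lost without replicate 1 or 2), while Rab17, another epithelial Rab, was higher at 0.34 (0.0352; lost without replicate 2 or 3, and dim at a mean level of 7.33). Rabep1, the Rab5 effector rabaptin, listed as Rab5ep and named here after its values were seen, had red levels of 10.02, 9.98 and 10.20 above green levels of 9.84, 9.66 and 9.78, a ratio of 0.30 (0.0190; 0.121 without replicate 2 and 0.240 without replicate 3). Rab7, the late endosomal Rab and the brightest at 12.62, had ratios of -0.09, -0.17 and -0.08 at days 2, 3 and 4, and Rab5a, Rab11a, Rab11b, Rab14 and Rab10 did not pass on any day either.

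**Figure D2:**
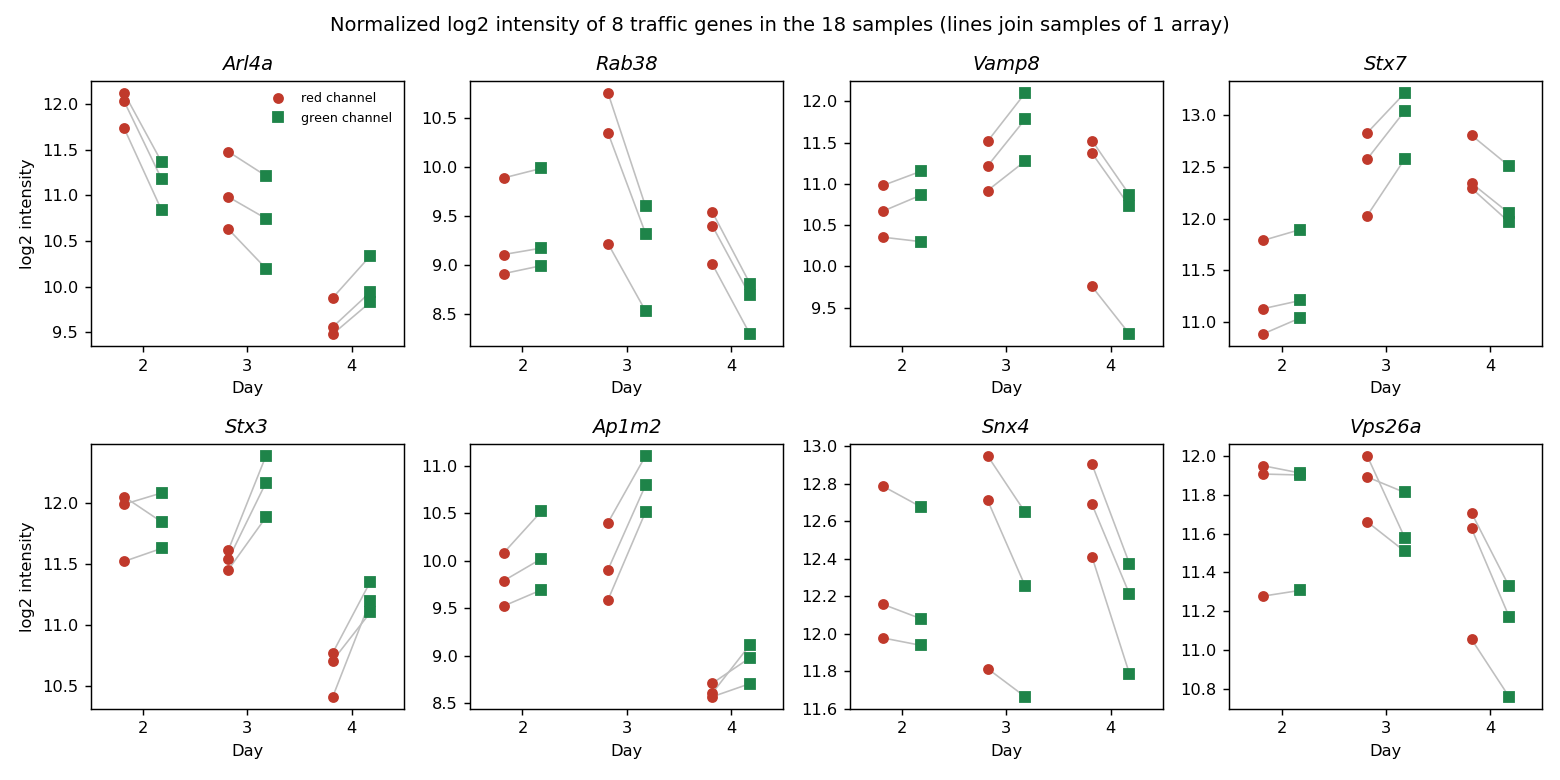
Log2 level (vertical axis) of 8 traffic genes in each red and green sample at days 2, 3 and 4, with a line joining the channels of 1 array. Within each array the red point of Arl4a is above the green one at day 2 and below it at day 4. That of Rab38 is above at days 3 and 4, and those of Vamp8 and Stx7 are below at day 3 and above at day 4. Across the arrays of a day the channels overlap in all of these cases except Arl4a at day 2 and Rab38 at day 4.

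The adaptors hold the mu subunit of an epithelial clathrin adaptor as their clearest case. Of 15 AP subunits, none passed at day 2, with 1 at an unadjusted p under 0.05 in limma. At day 3, 2 were lower, and at day 4, 3 were higher and 2 lower. Those are 13.3% and 33.3% of the subunits, where 22.5% and 20.2% of gene symbols passed. Ap1m2, the mu subunit of the AP-1B complex that sorts proteins to the basolateral membrane of epithelia, had day 3 levels of 10.40, 9.59 and 9.91 in red and 11.11, 10.52 and 10.80 in green. All red values lay below all green ones, with a ratio of -0.84 ± 0.090 (1.79-fold lower, adjusted p = 8.42e-06), and a second probe gave -0.60 (0.000683). At day 2 the levels were 10.09, 9.79 and 9.53 in red and 10.52, 10.02 and 9.69 in green, a ratio of -0.28 that did not pass (0.117). At day 4 they were 8.57, 8.71 and 8.61 in red and 8.71, 8.98 and 9.12 in green, with -0.30 (0.0280), and the second probe gave -0.29 (0.0599).

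The day 3 ratio of Ap1m2 held with any 1 replicate left out, and the day 4 ratio did not without replicate 2 or 3 (adjusted p = 0.136 and 0.349). The changes of the ratio to and from day 3 passed too, at -0.56 from day 2 to day 3 (lost without replicate 2 or 3, up to 0.323) and 0.54 from day 3 to day 4 (lost without replicate 1 or 2, up to 0.268). Ap1m1, the mu subunit of the widespread AP-1A, had ratios of 0.08, 0.12 and -0.08 and did not pass. Ap1g2, a gamma subunit near the lower end of the levels at 7.41, was lower at day 3 (-0.37, adjusted p = 0.0122; 0.0612 without replicate 1), and its ratio changed by 0.47 to day 4, a change lost whichever replicate was left out.

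Among the 6 AP-3 and AP-4 subunits, which serve traffic to lysosomes and from the Golgi, 2 were higher and 1 lower at day 4. Of gene symbols, 10.2% were higher and 10% lower at that day. Ap3s1, the sigma subunit of AP-3, had levels of 12.40, 12.07 and 12.23 in red and 12.54, 12.73 and 12.42 in green, fully apart, with a ratio of -0.33 (adjusted p = 0.0384; lost without replicate 2 or 3), and a change of -0.53 from day 3 that was lost whichever replicate was left out. Ap3d1, the delta subunit, had 12.02, 11.95 and 12.09 in red and 11.78, 11.73 and 11.81 in green, also apart, with 0.24 (0.0297). Ap3m1, the mu subunit, did not pass at its brightest probe (0.22, 0.0739), a clone noted for multiple bands, while its other probe, a single-band clone, gave 0.43 (0.00540). Ap4s1 (0.24, 0.0384, channels apart) and Ap1s1 (0.29, 0.0497) were higher as well. Ap3d1, Ap3m1, Ap4s1 and Ap1s1 are named after their values were seen; Ap3d1 and Ap4s1 were lost whichever replicate was left out (up to 0.244 and 0.229), and Ap1s1 without replicate 2 or 3 (up to 0.307). The 3 AP-2 subunits of plasma membrane endocytosis, Ap2a1, Ap2a2 and Ap2m1, did not pass in ratio on any day.

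The Stx and Vamp SNAREs, which carry out membrane fusion, were lower in red at day 3 in 4 of 7 genes and higher in none. At that day 11.0% of all gene probes and 12.1% of gene symbols were lower. The median log2 ratio of these 7 genes was -0.26 at day 3, where that of all 82 genes was -0.01. With the syntaxin-binding proteins Stxbp2 and Stxbp4 it was -0.22 over 9 genes. At day 2 none passed, with 0 at an unadjusted p under 0.05 in limma, and 2 were higher and 1 lower at day 4. The shares of gene symbols at day 4 were 10.2% higher and 10% lower. SNAREs with other names were measured in the list of other pathway genes given further below. Among them Gosr2 was higher at day 3 (0.26, adjusted p = 0.023). Vti1a, not well above background in red, had -0.23 and did not pass. Snap23, Snap29, Bet1, Bet1l, Use1 and Vti1b had ratios of 0.02 to 0.20 and did not pass. Vamp8, a SNARE of late endosomes and of regulated secretion, had day 3 levels of 10.92, 11.22 and 11.52 in red and 11.28, 11.78 and 12.10 in green, a ratio of -0.50 ± 0.081 (1.42-fold lower, adjusted p = 0.000462). The channels overlapped, with each red value below its partner. At day 4 the levels were 9.76, 11.37 and 11.53 in red and 9.18, 10.73 and 10.87 in green, and the ratio was 0.63 (1.54-fold, adjusted p = 6.11e-05).

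Replicate 1 of Vamp8 was the dimmest in both channels at day 4, while all 3 arrays lay above 0. At day 2 its levels were 10.67, 10.98 and 10.35 in red and 10.86, 11.15 and 10.30 in green, with a ratio of -0.10 (adjusted p = 0.545). The change of the ratio was the largest of any traffic gene from day 3 to day 4, at 1.13 (9.23e-06), and 0.73 from day 2 to day 4 (0.000814); these calls held with any 1 replicate left out. A second Vamp8 probe, dim in both channels on all days (not well above background), went the other way at day 4 (-0.27, 0.0280), and the median of both probes, 0.18, did not pass (0.101).

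Stx7, a syntaxin of late endosomes that can pair with Vamp8 in fusion, was likewise lower in red at day 3 and higher at day 4. At day 3 its levels were 12.03, 12.58 and 12.83 in red and 12.58, 13.04 and 13.21 in green, a ratio of -0.47 ± 0.073 (1.38-fold lower, adjusted p = 0.000363). At day 4 they were 12.29, 12.81 and 12.34 in red and 11.97, 12.51 and 12.05 in green, with 0.31 (0.00949). The channels overlapped on both days while every array had the same sign; at day 2 the ratio was -0.11 and did not pass. Its change from day 3 to day 4, 0.77 (0.000158), and its day 3 ratio held with any 1 replicate left out, the day 4 ratio did not without replicate 2 or 3 (0.0865 and 0.0943), and the change from day 2 to day 4, 0.42 (0.0224), was lost whichever was left out. Its clone is noted as having given no PCR product.

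Stx3, a syntaxin of the apical membrane of epithelia, was lower in red on both later days and not at day 2. Its day 2 levels were 11.99, 12.05 and 11.52 in red and 12.08, 11.85 and 11.63 in green, with a ratio of 0.00. At day 3 the red levels of 11.54, 11.62 and 11.45 were all below the green levels of 12.17, 12.39 and 11.88, by a ratio of -0.61 ± 0.097 (1.53-fold lower, adjusted p = 0.000391). By day 4 the red levels of 10.71, 10.77 and 10.41 were again all below the green levels of 11.10, 11.36 and 11.20, by -0.59 (0.000529). Both calls held with any 1 replicate left out; the changes from day 2, -0.61 to day 3 and -0.59 to day 4, were lost without replicate 1 or 2 and without replicate 2 or 3.

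The remaining Stx and Vamp genes moved less. Stx4a, a plasma membrane syntaxin named here after its values were seen, had -0.26 at day 3 (adjusted p = 0.0331), lost whichever replicate was left out. Vamp3, the endosomal VAMP with a mean level of 11.75, had ratios of -0.11, -0.22 and -0.15, which did not pass, and neither did Stx5a, Stxbp2 or Stxbp4.

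Stxbp4, a syntaxin-binding protein, was spotted as 26 probes in 21 print blocks, and these show how far probes of 1 symbol can differ. Their mean log2 levels ran from 6.69 to 11.6, and 23 of the clones gave a single PCR band. At days 2, 3 and 4, 3.30%, 20.1% and 17.4% of all gene probes passed in either direction. Of the 26 Stxbp4 probes, 1 was higher and none lower at day 2. At day 3, 2 were higher and none lower, and at day 4, 1 was higher and 1 lower. The ratios ran from -0.18 to 0.38 at day 2, from -0.28 to 0.34 at day 3 and from -0.56 to 0.42 at day 4, with medians of 0.14, 0.17 and 0.015, and 21, 21 and 14 of the 26 were above 0. The brightest probe, which stood for the gene, had -0.04, 0.03 and 0.19. Whether all 26 read the same transcript was not tested.

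**Figure D3:**
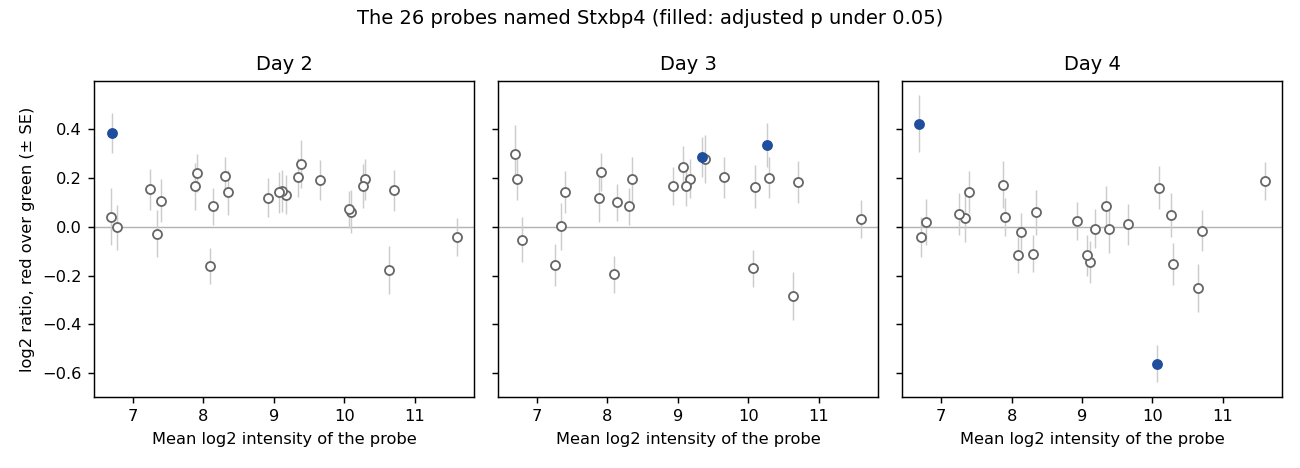
Log2 ratio of red over green (vertical axis) of the 26 Stxbp4 probes against their mean log2 level (horizontal axis) at days 2, 3 and 4; filled points passed the adjusted test. At days 2 and 3, 21 of the 26 probes lie above 0, and at day 4 14 do, from -0.56 to 0.42.

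Endosomal sorting genes that passed at day 4 were all higher in red, 4 of the 14 measured. At that day 7.97% of all gene probes and 10.2% of gene symbols at their brightest probe were higher. Of 14 sorting nexin and Vps genes, none passed at day 2, with 0 at an unadjusted p under 0.05 in limma; 1 was higher at day 3 and 4 were higher at day 4, when 11 of the 14 fitted ratios were above 0, against 49 of all 82, and their median was 0.15, against 0.07. Snx4, a sorting nexin that returns cargo from endosomes, had day 3 levels of 11.81, 12.95 and 12.71 in red and 11.66, 12.65 and 12.25 in green, which overlapped, with 0.30 ± 0.080 (adjusted p = 0.0150; lost without replicate 2 or 3). On day 4 the red levels of 12.41, 12.90 and 12.69 were all above the green levels of 11.79, 12.37 and 12.21, by 0.55 (1.46-fold, 0.000185), and this held with any 1 replicate left out. At day 2 its levels were 12.16, 12.79 and 11.98 in red and 12.08, 12.68 and 11.94 in green, a ratio of 0.07, and the change from day 2 to day 4, 0.47 (0.0184), was lost whichever replicate was left out.

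Retromer, the coat that brings receptors back from endosomes to the Golgi, is made of Vps26, Vps29 and Vps35. Vps26a had day 4 levels of 11.06, 11.71 and 11.63 in red and 10.76, 11.33 and 11.17 in green, a ratio of 0.38 ± 0.082 (1.30-fold, adjusted p = 0.00517; 0.0902 without replicate 3). Vps35 had 13.25, 12.35 and 12.40 in red and 12.89, 11.97 and 12.11 in green, a ratio of 0.34 ± 0.081 (1.27-fold, 0.00838; 0.0916 without replicate 2 and 0.0533 without replicate 3). The channels of both overlapped, with every red value above its partner. Vps29 had 12.60, 13.01 and 12.52 in red and 12.52, 12.83 and 12.35 in green, and its ratio of 0.15 did not pass (0.199).

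Of the retromer-linked sorting nexins, Snx2 had day 4 levels of 12.55, 13.55 and 13.35 in red and 12.22, 13.32 and 12.92 in green, with 0.33 (adjusted p = 0.00650; 0.142 without replicate 3), whereas Snx5 had -0.02 and Snx3 -0.04. Second probes did not follow: that of Vps26a gave 0.03 and that of Snx2 -0.00459, and with the median over the probes of a gene both calls were lost (0.0705 and 0.151). The ESCRT genes Vps28, Vps4a and Vps4b, which form and release vesicles inside the endosome, had ratios of -0.08, 0.03 and 0.16 at day 4 and did not pass.

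**Figure D4:**
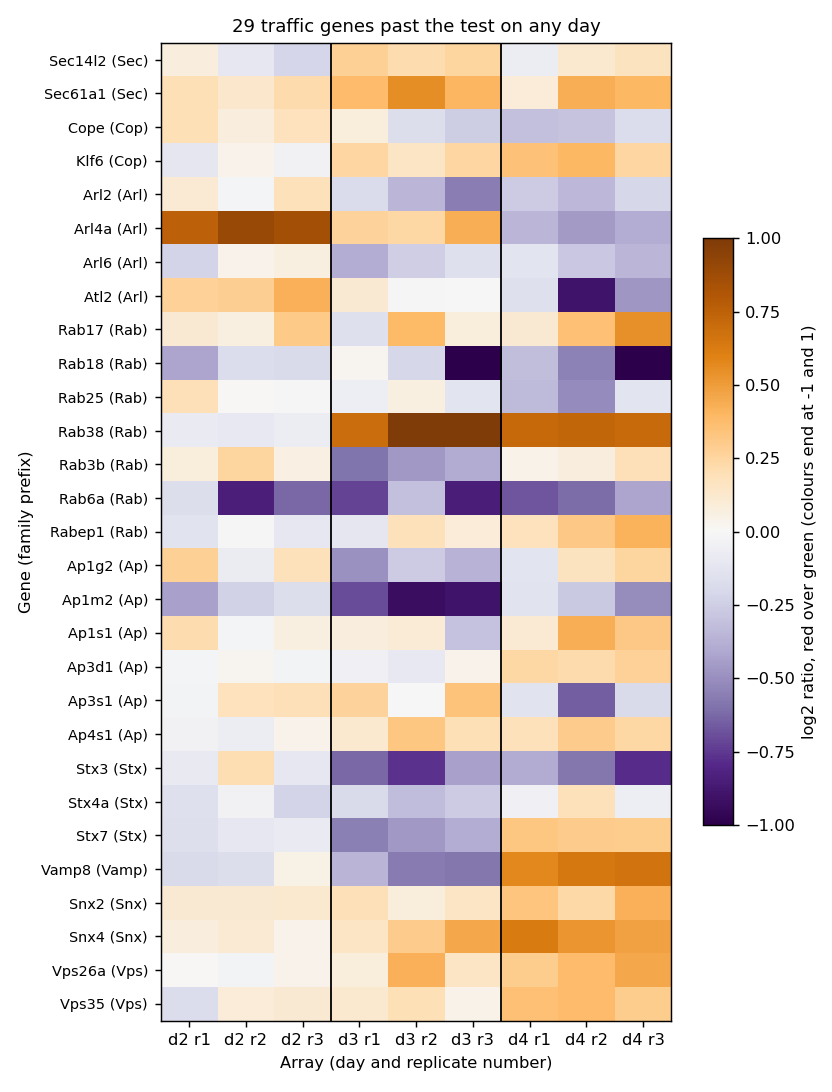
Log2 ratio of red over green on each of the 9 arrays (columns, by day and replicate). Rows are the 29 traffic genes that passed on at least 1 day, by family prefix, and colours end at -1 and 1. Rows keep 1 colour over the 3 arrays of a day on which they passed, and Vamp8, Stx7 and Arl4a change colour between days.

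The change of the channel ratio between days was also tested over all 82 genes. Of gene symbols at their brightest probe, 4.41% passed from day 2 to day 3, 8.79% from day 3 to day 4 and 8.59% from day 2 to day 4. From day 2 to day 3, 1 gene rose in ratio and 4 fell (6.10%, against 3.21% of all gene probes, 1.29% up and 1.92% down); from day 3 to day 4, 5 rose and 3 fell (9.76%, against 6.58%, 3.94% up and 2.64% down); and from day 2 to day 4, 4 rose and 4 fell (9.76%, against 6.56%, 3.41% up and 3.15% down). Without replicate 2 these counts were 1, 3 and 3, without replicate 1 they were 2, 5 and 5, and without replicate 3 they were 3, 6 and 4. The SNARE genes Vamp8 and Stx7 rose in ratio both from day 3 to day 4 and from day 2 to day 4.

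Levels within a channel changed between day 2 and day 4 in few traffic genes by the test. Each day had its own 3 arrays, so a change of level between days cannot be told apart from a difference between sets of arrays. In red, 3 rose and 5 fell (9.76%, against 6.80% of all gene probes, 3.28% up and 3.52% down), and in green 3 rose and 3 fell (7.32%, against 6.19%, 2.97% up and 3.22% down). Counted by gene symbol at the brightest probe, as the 82 genes are, 8.91% passed in red and 7.99% in green. Ap2a1, an alpha subunit of AP-2 at the plasma membrane, fell most in both: its red levels were 10.70, 9.85 and 10.53 at day 2 and 7.75, 6.14 and 7.54 at day 4, with green levels of 10.53, 9.95 and 10.44 at day 2 and of 7.85, 6.68 and 7.59 at day 4. Its level changed by -3.21 in red (adjusted p = 0.00257) and by -2.94 in green (0.00155), with day 2 and day 4 fully apart, and both were lost without replicate 3 (0.0755 and 0.0737). At day 3, where 1 array was left out for its spot flag, the levels were 10.46 and 9.79 in red and 10.29 and 9.73 in green. Its clone is noted as questionable, and the same array spot gave all 3 days.

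Arl4a and Ap1m2 were lower at day 4 in both channels too, Ap1m2 with changes of -1.17 in red and -1.15 in green that were lost whichever replicate was left out. Stx3 changed by -1.23 in red (adjusted p = 0.00343; 0.0539 without replicate 1 and 0.0554 without replicate 2) and had -0.63 in green, which did not pass. Rab27a, a Rab of exosome and granule release, changed by -0.85 in red (0.0419). Copg2, a COPI gamma subunit, rose by 0.79 in red and 1.02 in green, Stx7 by 1.22 in red and Ap1m1 by 1.02 in red, with 1.18 in green for Ap1m1, which did not pass (0.0567); Rab25 rose by 1.15 (0.00646) and Ap3s1 by 1.02 in green. Of these changes, those of Rab27a, Stx7, Rab25 and Ap3s1 and the red one of Copg2 were lost whichever replicate was left out, and the red one of Ap1m1 and the green one of Copg2 without replicate 2 or 3 (up to 0.385). The red count was 3, 3 and 2 and the green count 3, 2 and 0 without replicates 1, 2 and 3; in that last limma fit 12 genes had an unadjusted p under 0.05.

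**Figure D5:**
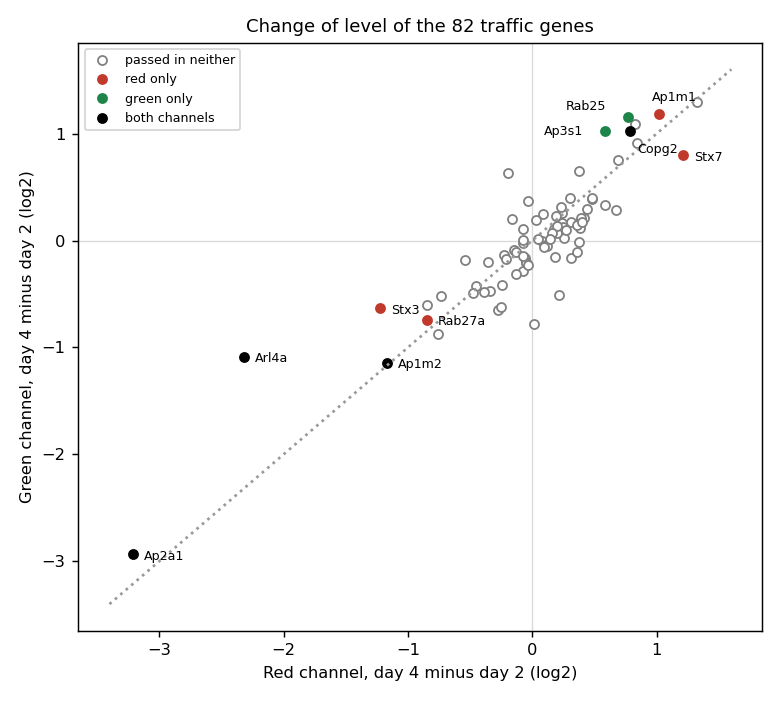
Change of log2 level from day 2 to day 4 in the red channel (horizontal axis) against the green channel (vertical axis) for the 82 traffic genes, with named genes past the test in either channel. Most genes lie near the diagonal, Ap2a1 far down and left at -3.21 in red and -2.94 in green, and Arl4a to the left of the diagonal at -2.32 in red and -1.09 in green.

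Other genes of the pathway were counted from a list drawn up with earlier results of these data known. It held coat, tether, SNARE, translocon and lysosome genes, small GTPases and regulators of Rab proteins. Of its 124 genes, 62 were measured and not already among the traffic genes counted above. None was higher and 1 lower at day 2, 9 were higher and 2 lower at day 3, and 14 were higher and 1 lower at day 4, with median log2 ratios of 0.02, 0.05 and 0.12. Of all gene probes, 1.38%, 9.15% and 7.97% were higher and 1.92%, 11.0% and 9.45% lower over the same days. Of gene symbols at their brightest probe, 1.68%, 10.4% and 10.2% were higher and 1.81%, 12.1% and 10% lower. At day 2 the lower gene was Srprb, a subunit of the signal recognition particle receptor (-0.36, adjusted p = 0.0164). At day 3 Gdi2, which extracts Rab proteins from membranes, was lowest (-0.81, 3.8e-05), and its ratio changed by -0.84 from day 2 and by 0.84 to day 4. Srp9 of the signal recognition particle (0.42, 0.00382) and Ssr4 of the translocon (0.41, 0.00336) were higher. At day 4 Cd63, a tetraspanin of late endosomes (0.52, 0.000360), the clathrin light chain Cltb (0.52, 0.00361) and Exoc5 of the exocyst (0.49, 0.000758) were higher, and Nsf, the ATPase that takes SNARE complexes apart, was lower (-0.54, 0.000743).

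In the authors' deposited table, a mean ratio was given for 80 of the 82 genes at day 2, 76 at day 3 and 80 at day 4, and lay on the same side of 1 as the fitted ratio for 74, 73 and 72 of them. All of the 2, 14 and 24 genes that passed here and had a ratio in the authors' deposited table were on the same side. The p-value in the authors' deposited table was under 0.05 for 1, 2 and 3 of the genes: Arl4a at day 2 (fold 1.82, p = 0.0226), Ap1m2 (fold 0.530) and Stx3 (fold 0.657) at day 3, and Stx3 (fold 0.655), Rab6a (fold 0.237) and Sec23b (fold 1.23) at day 4. For Rab6a at day 4 the deposited fold lay further from 1 than the 1.48-fold lower ratio fitted here. Both analyses start from the same arrays.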

How the data were processed

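RNA of 18 samples was read on 9 two-colour arrays. Per the file headers, the deposited tables give spot intensity in each channel (median foreground less background, not normalized), spot flags and a signal-to-noise score. The authors' ratio (fold) and ANOVA p-value per spot are also deposited, per the file headers; they were quoted as deposited. With limma 3.58.1 in R 4.3.3, spots flagged -75 or lower were dropped, normexp (offset 50) modelled the background, and ratios were normalized within arrays by loess (span 0.3, control spots without weight). The 9 log2 ratios of each gene probe were fitted with 1 term per day (6 residual degrees of freedom), moderated, and adjusted by Benjamini-Hochberg over all gene probes. Single-channel log2 levels followed Aquantile scaling. A channel with a signal-to-noise score under 1.4 on every array of a day was called not well above background. The number of arrays limits the precision. The steps were tested on simulated data.

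By the file headers and the value table, each array pairs the same-numbered samples of a day. Their deviations from the day mean correlated at 0.798 to 0.906 on the same array and at -0.664 to -0.0509 on others. These values do not test the pairing: both channels of an array share its mean level, and deviations from a shared mean oppose each other. Ratios of the same number on other days correlated at -0.151 to 0.201. The value table's 18 columns were rescaled copies of the spot tables' channels. Genes and lists were chosen with earlier results of these data known. Named genes were, per day, the 8 largest ratios each way that passed with 1 sign on all arrays, the 5 largest changes each way between days, the 6 largest channel changes each way, and the brightest of each family, with up to 4 other pathway genes a day. The values of 1 gene that enters the counts are not reported here.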

Additional observations from a re-analysis of the deposited data

Results flagged for a closer look

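The effect of the channel contrast differed between days, by the test of the difference itself in limma, for 12 traffic genes, and these values are given without explanation. From day 2 to day 3 the log2 ratio changed by 1.04 for Rab38, -0.53 for Arl4a, -0.56 for Ap1m2, -0.61 for Rab3b and -0.61 for Stx3. From day 3 to day 4 it changed by 1.13 for Vamp8, 0.77 for Stx7, 0.59 for Rab3b, 0.54 for Ap1m2, 0.47 for Ap1g2, -0.53 for Ap3s1, -0.54 for Atl2 and -0.71 for Arl4a. From day 2 to day 4 it changed by 0.80 for Rab38, 0.73 for Vamp8, 0.47 for Snx4, 0.42 for Stx7, -0.41 for Cope, -0.59 for Stx3, -0.83 for Atl2 and -1.23 for Arl4a. Of these 21 changes, 7 passed with any 1 replicate left out, 1 from day 2 to day 3 (Rab38) and 3 each in the other differences: Arl4a, Stx7 and Vamp8 from day 3 to day 4, and Arl4a, Rab38 and Vamp8 from day 2 to day 4. The 3 differences share their arrays, so a gene in more than 1 of them is not counted as separate support.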

How the results depend on the processing

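Of 70 calls of named genes, none reversed under any alternative. Over the alternatives of each call, 574 of 812 values kept the call and 238 lost it, and 1 call kept it under all. That call was the red change of Arl4a from day 2 to day 4. The fit without array pairing is not among the alternatives for changes within a channel. The 70 do not hold the calls of Arl6, Stx4a, Ap1s1, Ap3d1, Ap4s1 and Rabep1, which were named after their values were seen. Counts of traffic genes that passed are given here with those of all gene probes after a stroke, in the order day 2, day 3, day 4, then the changes from day 2 to 3, 3 to 4 and 2 to 4, then red and green from day 2 to day 4. Without 1 replicate they ranged over 1 to 2/225 to 306, 8 to 12/1181 to 2346, 7 to 24/1167 to 2272, 1 to 3/81 to 266, 3 to 6/407 to 777, 3 to 5/357 to 738, 2 to 3/241 to 588 and 0 to 3/186 to 541. Without the array pairing (no replicate block) they were 0/81, 0/150, 0/162, 0/2, 0/41 and 0/29. A replicate block across days gave 2/434, 14/2877, 20/2553, 5/415, 7/896, 7/904, 7/981 and 6/806, and moved no count by over 1.5 times. Plain background subtraction gave 1/122 at day 2, 3 traffic genes from day 2 to 3, 4 from day 3 to 4, 4/443 in red and 1/512 in green. Print-tip loess gave 1 traffic gene at day 2, and the value table's scaling 1/126, with 3 from day 2 to 3 and 3 from day 3 to 4. Probes above the median intensity gave 1/245 at day 2, 16 traffic genes from day 2 to 4, and 494 red and 489 green probes; the signal-to-noise filter gave 1 at day 2 and 15 from day 2 to 4. Array weights gave 4/1302 at day 2, 4524 probes at day 4, 8 traffic genes from day 2 to 3, 17/2255 from day 2 to 4, 20/2623 in red and 19/2171 in green. Each day fitted alone gave 1/294 at day 2 and 1921 probes at day 3. Of 3 alternatives chosen after seeing the data, members by updated symbol (110 genes) gave 11 in green, and neither leaving out Klf6 and Kif20a nor single-band clones moved a count by over 1.5 times. For these shifts the cause was not tested, beyond fewer arrays or probes where these were left out. Probes near background limit what dim genes such as Rab6a can show.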
